A study of Mus musculus with 367 samples.

Results

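Genes that mark white blood cells were followed here in cells sorted for a smooth muscle lineage reporter. The 10 genes Ptprc, Cd53, Cd52, Cd14, Ms4a7, Lyz2, Cd68, Aif1, Wfdc17 and Spi1 were chosen by name, as genes used across leukocytes or in monocytes and macrophages. The choice was made with earlier results of these data known. All 10 genes are present among the 50600 gene identifiers of the tables. They are called members below. The cells came from excisional wounds on the back of Sm22-Cre;tdTomato mice of mixed background, wounded at 3 to 8 weeks of age and sampled 12, 15 or 21 days later. All groups carry the same alleles, and the study has no unwounded or reporter-negative group among these cells. Sm22-Cre is Cre recombinase under the promoter of Tagln, which encodes the contractile protein SM22, so tdTomato marks a cell in which that promoter is or once was active. Wound tissue of 2 to 3 animals was pooled for each time point. Viable cells with high tdTomato were sorted, loaded on a Fluidigm C1 chip and sequenced over the full length of their transcripts.

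Leukocytes of every lineage carry the tyrosine phosphatase CD45, the product of Ptprc, whereas lysozyme and the endosomal protein CD68 are products of monocytes and macrophages. PU.1, the product of Spi1, is an ETS family transcription factor needed for the myeloid lineage, and it binds purine-rich sites in the regulatory regions of many myeloid genes. In healing skin, monocytes enter from the blood and become macrophages, which clear debris and signal to fibroblasts.

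There were 3 captures at day 12, 2 at day 15 and 2 at day 21, with 33 to 84 cells per capture and 367 cells in all. The file headers name no unit, and the values were read as FPKM from their form and the use of RSEM. In FPKM, fragments are scaled to the length of the transcript and to the total of the cell. On that reading, levels of different genes can be set side by side. Cells were kept when mitochondrial genes made up at most 15% of their summed FPKM, which left 316 cells, and 51 were removed. The median kept cell of a capture had 4812 to 6189 genes above 0. The depth, estimated from the steps between FPKM values, was 922258 to 2215675 fragments for the median cell of a capture. The capture was the replicate. Captures of 1 day may share animals, so p-values measure only the spread between captures.

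Of the lineage that the sort selects, Tagln was detected in 189 of the 284 cells with few or no members and in 6 of the 32 cells with most members, which are introduced below. The tdTomato transcript was not analysed here. Col1a1, the collagen chain that marks fibroblasts, was detected in 315 of 316 kept cells.

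The promoters of members are shown because the members were found together in the same cells and because PU.1, the product of a member, is known to bind the bases GAGGAA and related ETS sites. RefSeq promoters on GRCm38.p6 were at hand for 7 of the 10 members. The sequences run 5′ to 3′ on the gene's strand over the 250 bases before a transcript start annotated by RefSeq. Capitals mark GAGGAA or AGGAAGT on either strand, where the reverse complements read TTCCTC and ACTTCCT. They lie at chr10:117282273-117282522 for Lyz2, chr11:69666171-69666420 for Cd68, chr3:106790150-106790399 for Cd53 and chr1:138175306-138175555 for Ptprc, each on the minus strand. The genes themselves, over which FPKM was summed, span chr10:117277331-117282321, chr11:69664213-69666153, chr3:106759921-106790149 and chr1:138062861-138175708 in the same order. These spans come from GENCODE, whose gene ends differ from the RefSeq starts, so the Ptprc window lies within its gene span and the Lyz2 window partly so.
Lyz2: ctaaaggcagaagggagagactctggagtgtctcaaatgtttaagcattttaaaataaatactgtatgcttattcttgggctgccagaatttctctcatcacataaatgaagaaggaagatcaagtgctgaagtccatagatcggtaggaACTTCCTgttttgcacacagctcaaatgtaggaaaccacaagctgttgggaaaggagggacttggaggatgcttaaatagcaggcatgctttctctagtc
Cd68: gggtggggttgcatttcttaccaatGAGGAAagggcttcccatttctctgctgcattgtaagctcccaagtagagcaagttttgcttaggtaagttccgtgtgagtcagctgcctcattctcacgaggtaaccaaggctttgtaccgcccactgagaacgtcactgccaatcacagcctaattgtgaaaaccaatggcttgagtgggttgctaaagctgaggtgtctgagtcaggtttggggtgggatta
Cd53: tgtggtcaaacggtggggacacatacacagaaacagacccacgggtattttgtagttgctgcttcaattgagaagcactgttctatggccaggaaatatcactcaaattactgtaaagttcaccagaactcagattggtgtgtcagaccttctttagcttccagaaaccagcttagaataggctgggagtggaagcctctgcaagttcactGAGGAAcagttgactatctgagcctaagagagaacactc
Ptprc: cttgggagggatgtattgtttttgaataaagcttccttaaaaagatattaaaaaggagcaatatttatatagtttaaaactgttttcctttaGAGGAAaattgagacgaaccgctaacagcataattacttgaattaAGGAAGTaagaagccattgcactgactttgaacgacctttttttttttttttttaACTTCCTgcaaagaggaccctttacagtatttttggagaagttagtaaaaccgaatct
GAGGAA was present in 5 of the 9 promoters of members and in 23.3% of all 32851 promoters of the same length. AGGAAGT, which was chosen after the sequences had been read, was present in 3 of 9 and in 7.69% of all. These 3 belong to 2 members, since the windows of the 2 Ptprc promoters overlap and share a match. In the Lyz2 window it begins 100 bases before the start on the opposite strand, and in the Cd53 window GAGGAA begins 39 bases before the start. Both Ms4a7 promoters held neither. GAGGAA shares the bases AGGAA with AGGAAGT, but no 2 matches overlapped in the 4 windows shown. These matches are letters in a window and say nothing of binding in these cells.

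Members were all but absent from most cells and present together in a few. Of the 316 kept cells, 229 had none of the 10 members above 0 FPKM, 41 had 1, 13 had 2 and 1 had 3. No cell had 4, 5 or 6. The remaining 32 cells had 7 to 10 members. Any limit from 4 to 7 members therefore picks the same cells, 10.1% of the total (95% Clopper-Pearson interval 7.03% to 13.99%, for counting error only). These cells are called the member-rich cells. They were chosen by the members themselves, so levels of members in them are a description with no test.

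**Figure D1:**
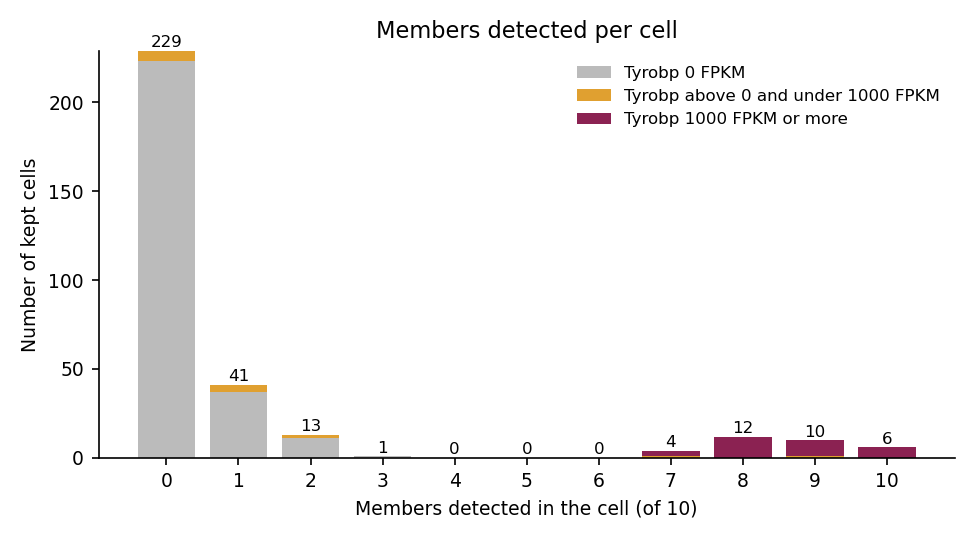
Number of kept cells (y axis) by the number of members above 0 FPKM in the cell (x axis), with the level of Tyrobp in colour. The 229 cells with no member stand apart from the 32 cells with 7 to 10, and no cell lies at 4, 5 or 6.

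Member-rich cells had fewer genes and more estimated fragments than the others. Their median was 4933 genes and 1957847 estimated fragments, against 5611 genes and 1269067 fragments in the other 284 cells. The members made up a median of 2.16% of the summed FPKM of such a cell, with 0.125% as the lowest and 7.15% as the highest value. Lyz2 by itself made up a median of 1.03%.

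Among the surface members, Cd53, a tetraspanin of leukocytes, was above 0 in 32 of 32 member-rich cells, with 11.6 FPKM as the lowest, 575 as the median and 5414 as the highest value. It was above 0 in 4 of the other 284 cells. Ptprc had a lower level, with a median of 62.4 FPKM and a maximum of 968, and was listed at 0 in 4 of the 32 cells. In the other cells Ptprc was at 0 in 284 of 284, for an upper limit of 1.06% at 3 cells. The 28 cells with Ptprc were thus all member-rich cells. The Ptprc locus overlaps that of A130071D04Rik on the same strand, which was above 0 in 6 member-rich cells and 5 of the others.

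Cd52, a small anchored glycoprotein of lymphocytes and macrophages, was above 0 in 24 of the 32 cells, with a median of 389 FPKM, and in 1 other cell, at 190 FPKM. Its locus overlaps that of Crybg2 on the opposite strand, and with these libraries reads of the 2 genes may not be told apart. Crybg2 was above 0 in 19 member-rich cells and in 135 of the others, of which 1 had Cd52. Ms4a7, a membrane protein of macrophages, was above 0 in 32 of 32 cells, with 3.11, 1739 and 7469 FPKM as the lowest, median and highest values. It was above 0 in 14 other cells, where the highest value was 63.5 FPKM.

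Cd14, the co-receptor for bacterial lipopolysaccharide, stood apart from the other members. It was above 0 in 11 of the 32 member-rich cells, and in those 11 the median was 257 FPKM. It was also above 0 in 9 of the other cells, with a median of 63.6 FPKM in those 9. Over the 316 cells the log2(FPKM + 1) of Cd14 had a Pearson correlation of 0.40 with the mean of the remaining 9 members, the lowest of the 10. For Ms4a7 the same value was 0.96, the highest, and for Spi1 it was 0.64. These correlations describe cells from 7 captures that share libraries and depth.

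Lyz2, lysozyme, and Cd68 are the members of the lysosome and granule. Lyz2 had the highest level of all members, with a median of 9383 FPKM in the 32 cells and 31782.5 as the highest value. In 1 member-rich cell it was at 1.49 FPKM. Lyz2 was also above 0 in 19 other cells, of which 10 were in day 12 capture 2. It was the most of any member, but with a median of 2.62 FPKM in those 19 and at least 10 FPKM in 7 of them. The close paralog Lyz1 was above 0 in 20 of the 32 cells, with a highest value of 113 FPKM, and reads can be shared between the 2 genes.

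Cd68 was above 0 in 31 of 32 member-rich cells, with a median of 1356 FPKM. It was above 0 in 12 other cells. One of these, in day 12 capture 2, had 62107.9 FPKM of Cd68 and 46354.2 FPKM of Cd14 with 17 genes above 0 in all, and neither Tyrobp nor Col1a1. With that cell left out, the mean of day 12 capture 2 was 405 FPKM in place of 1569.6 for Cd68, and 80.6 in place of 954 for Cd14.

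In the cytoplasm, Aif1, the actin-binding macrophage protein also called IBA1, was above 0 in 30 of 32 cells with a median of 1288 FPKM, and in 5 other cells with none over 45.3. Wfdc17, a secreted protein with a whey acidic protein domain, was above 0 in 31 of 32 cells and in 6 others. Within the member-rich cells it ran from 0 to 50960 FPKM, the highest value of any member there, around a median of 2016.

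Spi1, the transcription factor gene, had low levels where it was seen. It was above 0 in 23 of the 32 member-rich cells and in 0 of 284 others, with the same upper limit. In those 23 cells the median was 6.41 FPKM, and 11 cells had 10 FPKM or more, with 1319 as the highest. Spi1 and Cd14 were both at 0 in part of these cells, but where present the lowest value was 0.09 FPKM for Spi1 and 25.5 for Cd14.

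**Figure D2:**
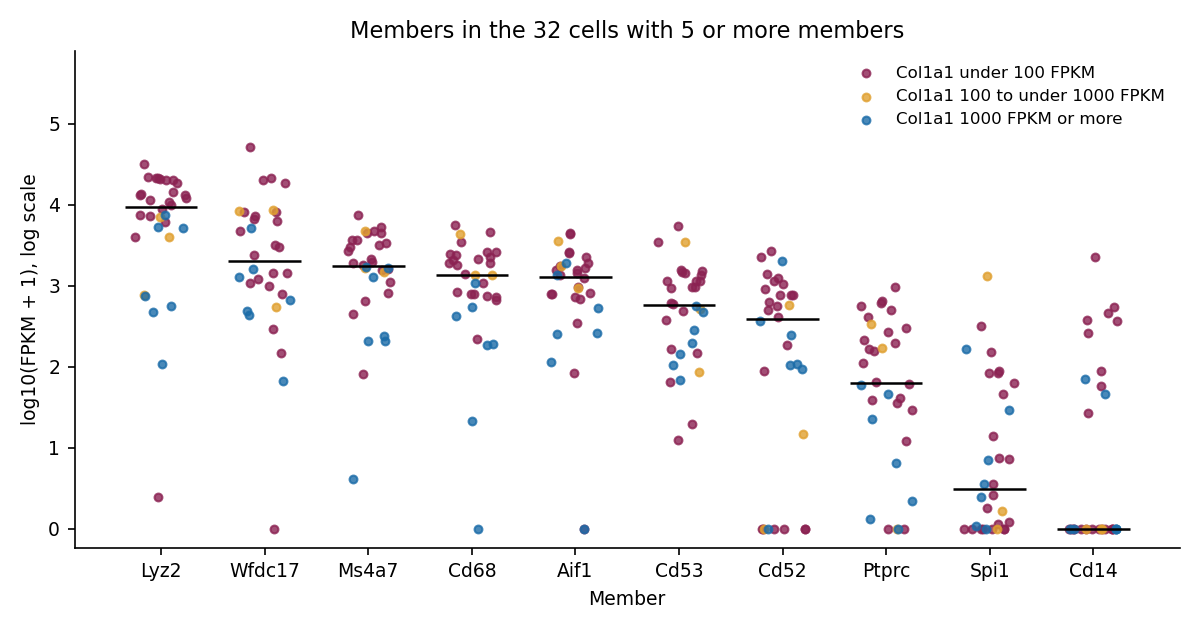
Level of each member as log10(FPKM + 1) in each of the 32 member-rich cells (points), with the median as a black bar and colour for the level of Col1a1 in the same cell. Lyz2 has the highest median, 9383 FPKM, and Cd14 is at 0 in 21 cells, and for Lyz2 the 7 cells with 1000 FPKM or more of Col1a1 all lie below the median.

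Averaged over the 6 captures that held member-rich cells, the log2 of the mean FPKM + 1 in these cells ran from Lyz2 (13.19 ± 0.49, SD, n = 6), Wfdc17 (11.54 ± 2.19), Ms4a7 (10.74 ± 0.86) and Cd68 (10.72 ± 0.67) through Aif1 (10.43 ± 0.88), Cd53 (9.57 ± 0.77) and Cd52 (8.36 ± 1.43) to Ptprc (7.16 ± 0.80), Spi1 (5.34 ± 2.43) and Cd14 (4.48 ± 3.77). Neighbours in this order were not tested against each other. The paired difference between neighbours was smaller than its SD over captures for each of the 9 steps. This SD is the spread of single captures and does not test the mean difference. The difference came closest to its SD for Aif1 over Cd53, at 0.86 ± 0.88, with Aif1 higher in 5 of 6 captures. It was 0.02 ± 1.25 for Ms4a7 over Cd68, with Ms4a7 higher in 4 of 6. Lyz2 was the member whose level varied least between captures.

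The mean of Lyz2 in the member-rich cells was 14628.6 and 13407 FPKM in captures 1 and 2 of day 12, 6929 in capture 3, 6474 in capture 2 of day 15, and 8389 and 9119 in captures 1 and 2 of day 21. Captures 1 and 2 of day 12 were the highest, and no capture stood apart. Wfdc17 had means of 4879.7, 8836, 7383, 4474 and 3311 FPKM in the first 5 of these captures and 145 in capture 2 of day 21. That capture held 3 such cells, with 290, 146 and 0 FPKM.

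Cd68 had means of 3786, 1474 and 1729 FPKM in the member-rich cells of day 12, 1845 at day 15, and 1445 and 906 at day 21. Ms4a7 had 1101, 2540 and 667 at day 12, 2885 at day 15, and 2826 and 1666 at day 21. Cd53 had 869, 1105 and 377 at day 12, 487 at day 15, and 1613 and 667 at day 21. For Cd68 the higher value of day 21, 1445, lay just under the lowest of day 12, 1474. Ms4a7 was highest in the capture of day 15. Capture 3 of day 12, where 2 of 3 member-rich cells had high Col1a1, was the lowest for Ms4a7 and Cd53.

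Aif1 had means of 1514, 978 and 510.0 FPKM in the member-rich cells of day 12, 1504 at day 15, and 1979 and 3016 at day 21. Ptprc had 104, 202 and 78.7 at day 12, 176 at day 15, and 326 and 84.98 at day 21. Cd52 had 91.2, 803 and 919 at day 12, 207 at day 15, and 655 and 136 at day 21. Aif1 was thus highest in the 2 captures of day 21, whereas Ptprc and Cd52 overlapped between days. These are values of 2 to 14 cells per capture and were not tested. The share of all genes that separate the days in such cells was not counted. The orders of Aif1 and Cd68 are therefore not read as differences between days.

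The low or patchy members differed by capture in how many cells carried them. Cd14 was above 0 in 0 of 2, 5 of 14 and 0 of 3 member-rich cells of day 12, 1 of 5 at day 15, and 3 of 5 and 2 of 3 at day 21. Its means were 0, 206 and 0 FPKM at day 12, 13.9 at day 15, and 192 and 211 at day 21. Spi1 had means of 22.8, 24.6 and 84.6 FPKM at day 12, 266 at day 15, and 1.35 and 133 at day 21. The 266 came mainly from 1 cell at 1319 FPKM, which had 18561 estimated fragments, the fewest of the 32.

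The share of member-rich cells varied widely between captures of 1 day. They were 2 of 44 kept cells in capture 1, 14 of 53 in capture 2 and 3 of 37 in capture 3 of day 12. At day 15 they were 0 of 74 in capture 1, for an upper limit of 4.05%, and 5 of 29 in capture 2. At day 21 they were 5 of 37 and 3 of 42. The captures with the highest share, 26.4%, and with none belonged to days 12 and 15. Their intervals were 15.3% to 40.3% and 0% to 4.86%, for counting error only. These 2 were picked as the extremes of the 7 captures, so the gap between them is no test. The mean share per capture was 13.02% ± 11.73 (SD over 3 captures) at day 12, 8.62% ± 12.19 (2 captures) at day 15 and 10.33% ± 4.505 (2 captures) at day 21.

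**Figure D3:**
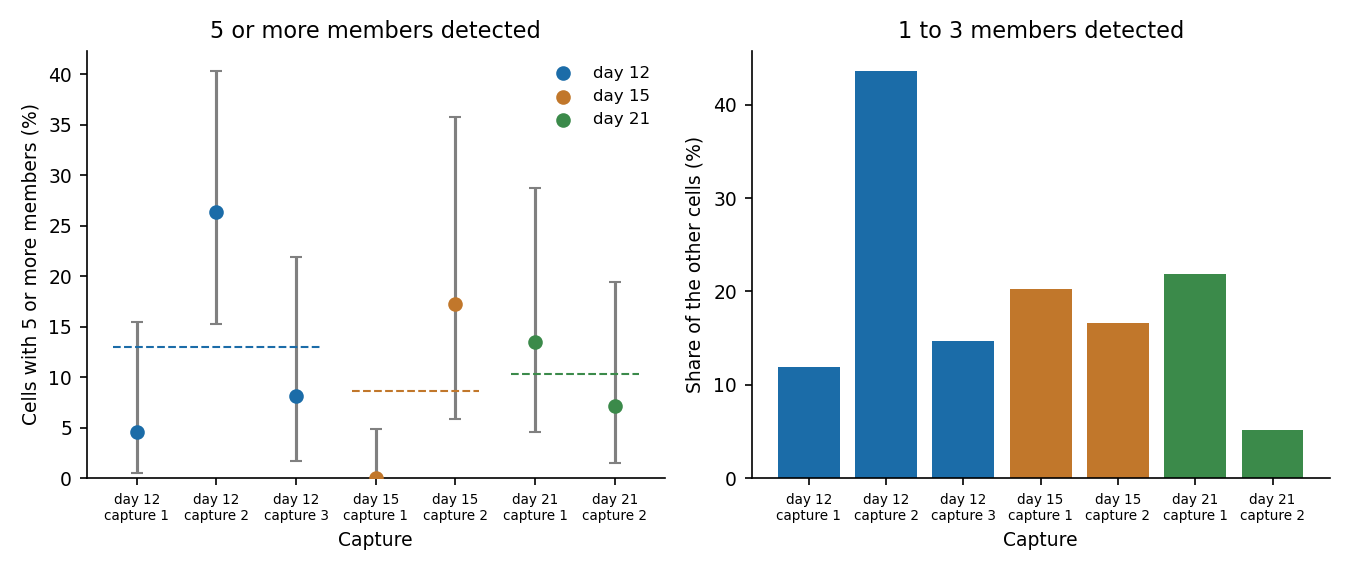
Left, percentage of kept cells with 5 or more members in each capture, with 95% Clopper-Pearson intervals and the mean of each day as a dashed line. Right, percentage of the remaining cells that had 1 to 3 members. Day 12 capture 2 has the highest value in both panels, 26.4% and 43.6%, and day 15 capture 1 has no cell with 5 or more members.

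Ptprc, as the member that all leukocytes carry, was used to test the days. It was above 0 in 11.8% ± 9.59 of kept cells of day 12 (SD, n = 3 captures). The values were 6.90% ± 9.75 for day 15 and 8.98% ± 2.59 for day 21, each with n = 2 captures. An exact permutation test of the sum of squares between days, over all 210 assignments of captures, gave p = 0.85. The shares at the 3 days overlapped.

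The capture means over all kept cells combine how many cells carry a member with how much they carry. For Ptprc they were 4.73, 53.3 and 6.38 FPKM in captures 1 to 3 of day 12, 0 and 30.4 at day 15, and 43.99 and 6.07 at day 21. For Lyz2 they were 671, 3649 and 562 FPKM at day 12, 14.6 and 1116 at day 15, and 1134 and 656 at day 21. In both genes day 15 capture 1 was the lowest and day 12 capture 2 the highest, and the ranges of the days overlapped.

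limma was run on the 14399 genes whose mean reached 1 FPKM. By it, 0 of the 10 members were called between days 12 and 15, with 0% of all genes called in that comparison at an adjusted p under 0.05. Between days 12 and 21, and between days 15 and 21, 0 of 10 members were called as well, again with 0% of all genes. At an unadjusted p under 0.05 there were 733, 896 and 749 genes in the 3 comparisons, and 1, 0 and 0 members. The 3 comparisons share captures and are not independent.

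The single member under 0.05 before adjustment was Cd68 between days 12 and 15. Its log2(capture mean FPKM + 1) was 8.48 at day 12 and 4.36 at day 15, a difference of -4.12 ± 1.84 (SE) with an adjusted p of 0.92. For Lyz2 the levels were 10.12 and 7.05, with a difference of -3.08 ± 1.43 and an adjusted p of 0.92. The median difference over the 10 members was -2.47 between days 12 and 15, 0.03 between days 12 and 21 and 2.59 between days 15 and 21, beside medians over all genes tested of -0.14, -0.16 and 0.

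The low values of day 15 came from capture 1. Without that capture, the median over the members was 0.20 between days 12 and 15 and -0.59 between days 15 and 21, and Ptprc was 1.25 higher at day 15 than at day 12. The capture means of the 2 days did not overlap for 0 of 10 members between days 12 and 15 (21.9% of all genes), 0 of 10 between days 12 and 21 (22.3%) and 1 of 10, Cd14, between days 15 and 21 (29% of all genes).

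**Figure D4:**
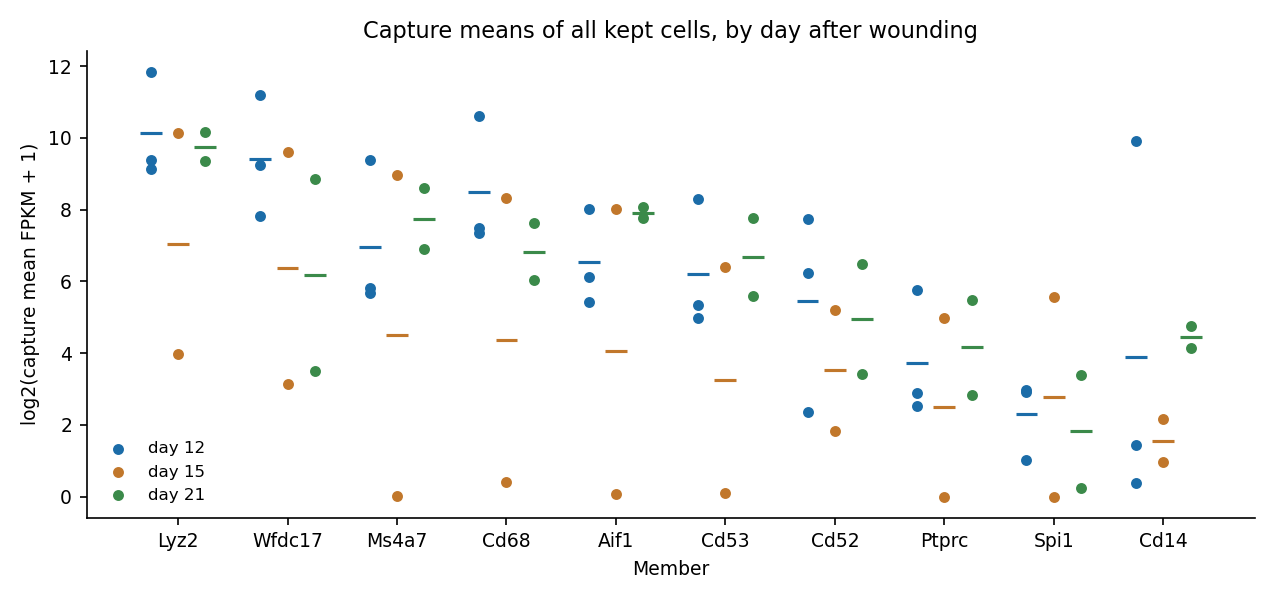
Level of each member as log2(capture mean FPKM + 1) over all kept cells, with a point per capture, colour for the day and a bar for the mean of the day. For Lyz2 the day means are 10.12, 7.05 and 9.75, and in Ms4a7, Cd68, Aif1, Cd53, Ptprc and Spi1 1 of the 2 captures of day 15 lies near 0.

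Tyrobp, the adaptor protein that passes signals from activating receptors of myeloid cells, followed the members closely. All 30 cells with 1000 FPKM or more of Tyrobp were member-rich. Of 272 cells with Tyrobp at 0, none was member-rich, and 49 had 1 to 3 members. The other 2 member-rich cells had 425 and 9.96 FPKM of Tyrobp.

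Cells with at least 10 FPKM of Tyrobp were also set against the rest within each capture, as a description. There were 35, of which 31 were member-rich. The difference in log2(mean FPKM + 1) was 9.43 ± 2.59 for Wfdc17 (SD over 7 captures), 8.92 ± 3.00 for Aif1, 8.59 ± 3.87 for Ms4a7, 8.37 ± 5.88 for Lyz2, 7.22 ± 3.70 for Cd53 and 6.45 ± 4.83 for Cd68. It was 6.15 ± 2.77 for Ptprc, 5.81 ± 4.06 for Cd52, 4.60 ± 3.08 for Spi1 and 1.53 ± 4.01 for Cd14. Cd14 was higher in the Tyrobp cells in 3 of 7 captures, and Aif1 and Wfdc17 in 7 of 7.

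Day 15 capture 1 differed from the other captures here too. Its only cell with at least 10 FPKM of Tyrobp had 153 FPKM of it, 5234 of Col1a1, 319 of Wfdc17 and 4.46 of Aif1, and none of the other 8 members. In that capture Lyz2 was lower in the Tyrobp cell, by -3.98 on the log2 scale. Without the cell of 17 genes the Cd68 difference was 7.45 and that of Cd14 was 2.26.

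Col1a1 ran the other way, but not without exceptions. All 13 cells with Col1a1 above 0 and under 10 FPKM were member-rich, as were 9 of 14 from 10 to under 100, 3 of 49 from 100 to under 1000 and 7 of 239 with 1000 FPKM or more. Spearman's rho with Col1a1 across the 316 cells ranged from -0.17 for Cd14 to -0.41 for Lyz2. With Tyrobp it ranged from 0.33 for Cd14 to 0.84 for Cd53.

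Rgs5, a regulator of G protein signalling that marks pericytes, ran only weakly with the members. Member-rich cells were 11 of 87 cells with Rgs5 at 0, 16 of 135 from above 0 to under 10 FPKM, 3 of 21 from 10 to under 100, 0 of 10 from 100 to under 1000 and 2 of 63 with 1000 or more. The rho with Rgs5 was between -0.14 and -0.04 for every member.

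**Figure D5:**
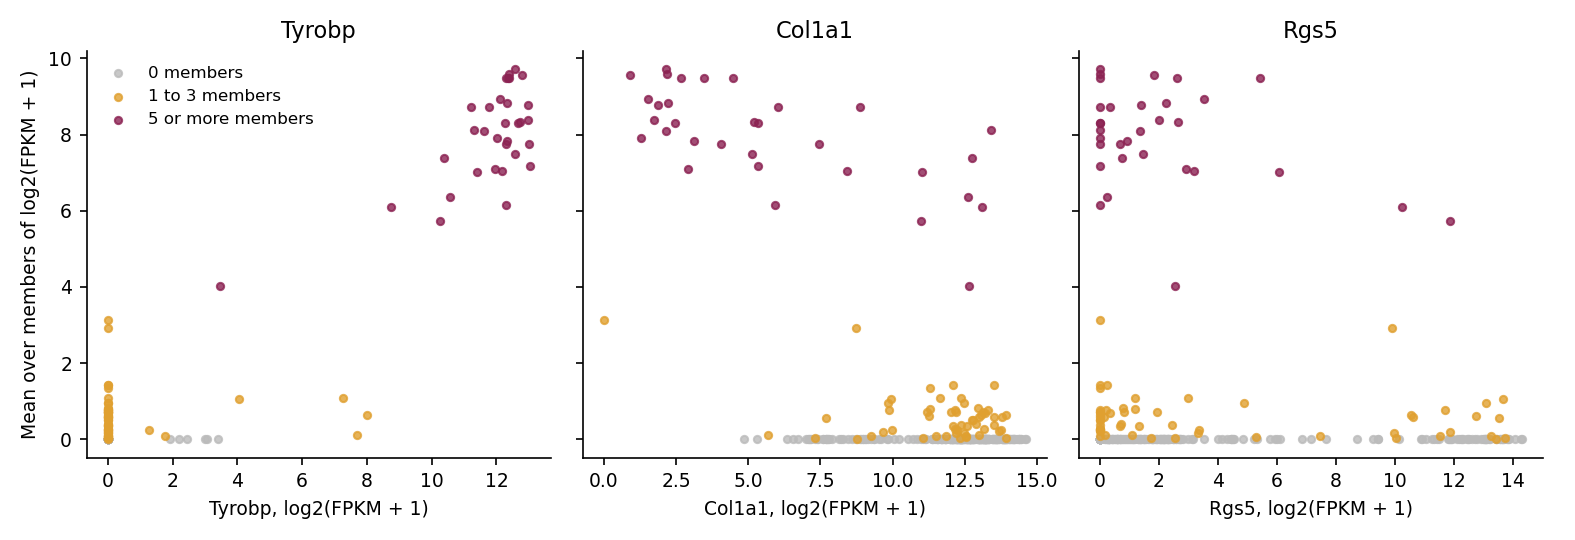
Mean over the 10 members of log2(FPKM + 1) in each kept cell (y axis) against log2(FPKM + 1) of Tyrobp, Col1a1 and Rgs5 in the same cell (x axes), with colour for the number of members detected. Cells with 5 or more members lie at 4.02 to 9.71 on the y axis, and all others at 3.14 or less.

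Among the member-rich cells, the level of the members was graded along Col1a1. The mean of log2(FPKM + 1) over the members had a rho of -0.66 with Col1a1 and 0.50 with Tyrobp over the 32 cells, as a description of cells from 6 captures. This mean was 6.15 to 9.71, with a median of 8.36, in the 22 cells with Col1a1 under 100 FPKM. It was 7.05 to 8.73 in the 3 cells from 100 to under 1000. In the 7 cells with 1000 FPKM or more it was 4.02 to 8.12, with a median of 6.36.

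In those 7 cells the median of Lyz2 was 735 FPKM, against 13146.8 in the 22 cells low in Col1a1. The medians of Ms4a7 were 241 and 2397, of Cd68 190 and 1917, of Cd53 193 and 964, and of Ptprc 5.47 and 159. Tyrobp had medians of 1343 and 5168. The ranges overlapped, as for Lyz2, at 106 to 7509 and 1.49 to 31782.5 FPKM. Lyz2, Ms4a7, Cd68, Cd53 and Ptprc were below the median of the 32 cells in 7 of 7. Cd52 and Wfdc17 were below it in 6 of 7, Aif1 in 5 and Spi1 in 3, and Cd14 had a median of 0. Spi1 had medians of 2.53 and 2.10.

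These 7 cells also carried fibroblast and contractile transcripts. Their Col1a1 was 2025 to 10805 FPKM, and it exceeded Lyz2 in 6 of 7. Tagln was above 0 in 6 of 7 and in 0 of the 22 low cells, and Acta2, smooth muscle actin, was at 10 FPKM or more in 4 of 7 and 2 of 22. They had a median of 6538 genes, with 11109 as the highest, against 4919 in the 22 cells. They came from 4 captures, with 2 each in captures 2 and 3 of day 12 and capture 2 of day 15 and 1 in capture 1 of day 21. The methods of the study restrict its analysis to wells seen to hold a single cell, but the tables carry no record for each well. The methods also leave out cells above a limit on genes, which the cell with 11109 genes, from day 12 capture 2, exceeded. Another of the 7, from day 12 capture 3, had 141497 estimated fragments. Counted as aligned reads, these would fall below the minimum that the methods set. Its true number of aligned reads was not tested. None of the 7 had both Xist and Y-linked RNA at 10 FPKM or more, but 5 came from captures without any cell at that level of Y-linked RNA, where the check could not work. Of the other 2, both from day 12 capture 3, 1 had 27.9 FPKM of Xist and 2.60 of Y-linked RNA and the other 0.42 and 0. Whether RNA of a second cell had part in these profiles was not tested.

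The 55 cells with 1 to 3 members were mostly cells with high Col1a1, of which 44 had 1000 FPKM or more. Of the 55, 49 had Tyrobp at 0. The highest member of such a cell had a median of 30.2 FPKM over the 55 cells. It was under 10 in 23 cells, at least 100 in 16 and at least 1000 in 2. They made up 43.6% of the cells that were not member-rich in day 12 capture 2, and 5.13% to 21.9% in the other 6 captures. Day 12 capture 2 was also the capture with the most member-rich cells. The part of RNA shared between wells in these values was not tested.

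Many genes of the same cell kinds had the pattern of the members. By Pearson correlation with the mean log2 level of the members over 316 cells, the 10 most alike of 16981 genes were Fcer1g (r = 0.98), the common Fc receptor chain, Ctss (0.97), a cathepsin of antigen-presenting cells, Tyrobp (0.96), C1qc (0.95), Laptm5 (0.95), C1qa (0.95), C1qb (0.94), Pf4 (0.94), Clec4n (0.93) and Adgre1 (0.93). C1qa, C1qb and C1qc encode the chains of the complement protein C1q, and Adgre1 encodes F4/80. C1qc was above 0 in 31 member-rich cells and in 0 of 284 others.

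Of 15 pan-leukocyte genes besides the members, which include Laptm5 named above, 8 were at 10 FPKM or more in most member-rich cells. Laptm5, a lysosomal membrane protein, was so in 31 of 32 cells and in 4 of the others, and Hcls1 in 2 of 32. Arhgdib was the exception among them, since it was at 10 FPKM or more in 25 of 32 member-rich cells and also in 212 of the 284 others. Lcp1, the actin bundler plastin-2, was above 0 in 190 of the other cells but at 10 FPKM or more in 4 of them.

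A list of 19 monocyte and macrophage genes besides the members includes Fcer1g, Ctss, Tyrobp, C1qa, C1qb, C1qc and Adgre1, already named above. Of the 19, 13 were at 10 FPKM or more in most member-rich cells. Fcer1g and Ctss were so in 32 of 32. The macrophage mannose receptor Mrc1 was so in 28 and Csf1r, the receptor for macrophage colony-stimulating factor, in 28. Ly6c2, a surface gene of inflammatory monocytes, was at 0 in 32 of 32 member-rich cells, for an upper limit of 9.38% at 3 cells, and Ccr2, the chemokine receptor of such monocytes, was at 10 FPKM or more in 4.

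Markers of T cells, mast cells and Langerhans cells were at or near 0 in the member-rich cells, while some B cell and neutrophil genes were present in a few. The summed level of the T cell list was at most 0.71 FPKM in them, and that of the mast cell and Langerhans cell lists was 0. The neutrophil genes S100a8, Retnlg and Ly6g were at 0 in all 316 cells, and S100a9 was above 0 in 1 member-rich cell, at 420 FPKM. Csf3r, the receptor for granulocyte colony-stimulating factor, was above 0 in 23 member-rich cells and at 10 FPKM or more in 5, with 164 as the highest value. It was also above 0 in 157 of the other cells, but at 10 FPKM or more in only 1 of these. The neutrophil list summed to 10 FPKM or more in 6 of 32 member-rich cells and 2 of the others. Cd79b, part of the B cell receptor, was at 10 FPKM or more in 6 member-rich cells. The B cell list summed to 10 FPKM or more in 7 of 32, with 703 as the highest sum, and in 0 of the others. The part of other leukocytes in these cells was not tested. Cd209a, a gene of dendritic cells, was at 3040.6 FPKM in 1 member-rich cell and at 0 in the other 31. Endothelial genes summed to at most 1.36 FPKM and keratinocyte genes to at most 0.5 FPKM. Schwann cell genes summed to at most 0.98 FPKM and erythroid genes to 0. The mural list summed to a median of 1.29 FPKM and the contractile list to 0, with highest sums of 4107 and 3111. The fibroblast list summed to 4.64 to 31736 FPKM in the member-rich cells around a median of 50.8, and to a median of 29166 FPKM in the others.

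Within the 32 cells the members did not rank the cells alike. Over the 45 pairs of members, Spearman's rho between levels had a median of 0.10, with -0.22 for Ptprc and Spi1 as the lowest and 0.55 for Lyz2 and Cd68 as the highest value. Ptprc and Cd53 had 0.50. Apart from Cd14, the members were detected mainly in these cells, which were chosen by the members themselves. Levels of the members within those cells were for the most part weakly related.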

How the data were processed

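The authors aligned paired-end reads with Bowtie 1.0.0 to mm10 and estimated expression with RSEM (build and tools also per the labels), and the deposited values were read as FPKM per gene and cell. The headers do not state the unit. It was taken from the use of RSEM, from sums that differ between cells and from 2 decimals, which counts would not have. They later filtered and normalized further, which is not in these files. Symbols and positions came from GENCODE mouse release 21 (GRCm38), which holds 50376 of 50600 identifiers, with 224 unmatched. A gene counted as detected above 0 FPKM. Depth was estimated from the steps between FPKM values of 9426 genes with 1 transcript, which in simulated cells came within 25% of the truth for 98.9%. Shares have Clopper-Pearson intervals at 95%, and a count of 0 was given the limit of 3 counts. Both cover counting error only.

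Capture means of kept cells were compared between days with limma 3.58.1 in R 4.3.3 on log2(mean FPKM + 1), with a variance trend, all 7 captures in one fit, 2-sided and adjusted after Benjamini and Hochberg at 0.05. limma was used since the files hold no counts, and it was tested on simulated data. Descriptions and figures were made with matplotlib 3.10.9, pandas 2.3.3, scipy 1.17.1 and numpy 2.4.6 under Python 3.11.15. Named genes were the members, Tyrobp, Col1a1, Rgs5, examples of the lists and the 10 most alike genes, among genes above 0 in at least 10 cells. Arhgdib, Lcp1, Mrc1, Csf1r, Ccr2, Cd79b, Cd209a, Lyz1, Acta2 and Tagln were added after values were seen, as were the Col1a1 limits used within the member-rich cells. The members and lists were chosen with earlier results of these data known. The descriptions of day 12 capture 3 name the matrix of capture 2, and the titles were followed. Alternatives were other cell filters, pseudocounts, limits for detection and for Tyrobp, no filter on low genes, no variance trend, scaled cells, capture number as a block, and each capture left out in turn.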

Additional observations from a re-analysis of the deposited data

Results flagged for a closer look

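Cells outside the comparisons also carried the members. Of the 51 cells removed because mitochondrial genes exceeded 15% of their FPKM, 5 had 5 or more members, a share of 9.80% (95% Clopper-Pearson interval 3.26% to 21.4%), above the 5.88% that a count of 0 would allow. At this limit the share was close to the 10.1% of kept cells, and the difference was not tested. The 5 cells had 9, 9, 7, 6 and 5 members, so, unlike in the kept cells, a limit of 7 would give a lower share. The cell with 5 members had Tyrobp at 0 and 454 FPKM of Col1a1. A cell with 9 members, from day 12 capture 2, had 2206 FPKM of Lyz2 and 13459 of Tyrobp at a mitochondrial share of 20.4%. A further 12 removed cells had 1 to 4 members. The removed cells had a median of 2564 genes.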

How the results depend on the processing

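The share of member-rich cells was 9.56% to 10.3% under the 4 cell filters, the detection limits of 1 and 10 FPKM and the removal of cells under 2000 genes of day 12 capture 2 (added after the data were seen), and 6.84% to 13.2% with a capture left out. The lowest value, 6.84%, was without capture 2 of day 12, which holds 14 of the 32 cells. The exact permutation p for Ptprc by day was 0.73 to 0.90 under the other settings and 0.55 to 0.93 with a capture left out. The numbers of genes called between days were 0 under the 10 other settings in each comparison. With a capture left out they were 0 between days 12 and 15, 0 to 23 between days 12 and 21 and 0 to 14 between days 15 and 21, where 23 and 14 came without capture 2 of day 21, and no member was among them. Captures of the same number were not taken to be paired, since their deviations from the day means correlated by -0.02 to 0.10. With the capture number as a replicate block the counts were 0, 0 and 0. The member differences turned in sign with some captures left out, and the cause was not tested. For Ptprc the range was -3.72 to 1.25 between days 12 and 15 (-1.23 with all captures), -0.90 to 1.77 between days 12 and 21 (0.44) and -0.82 to 4.16 between days 15 and 21 (1.67). For Lyz2 it was -6.16 to 0.00491 (-3.08), -0.86 to 0.49 (-0.37) and -0.37 to 5.79 (2.71). The reversed values were those without day 15 capture 1 in the comparisons with day 15. Between days 12 and 21 they were -0.17 for Ptprc without day 12 capture 1, -0.90 without day 21 capture 1, and 0.49 and 0.03 for Lyz2 without capture 2 of day 12 and of day 21. The median difference of the members between cells with and without Tyrobp, 7.19 as the mean over captures, was 5.19 to 7.56 under the 6 other settings. With a capture left out it was 6.76 to 8.39, but leaving out 1 capture can move such a mean only by less than its SD. In single captures it ran from -0.06 to 9.74. Depth was estimated rather than deposited, and its part in the cells with Spi1 or Cd14 at 0 was not tested.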
